A study of Mus musculus with 2 samples.

Results

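*Lyve1*, *Folr2*, *Fcna*, *F13a1*, *Cbr2*, *Selenop*, *Ednrb*, *Rcn3* and *Ninj1* are genes known for resident perivascular macrophages, and they were taken by symbol as 9 of the 31053 genes counted in adipose tissue macrophages (ATMs). Several of them are genes by which the study described its resident cluster of the same cells, so their presence in resident-like cells here is not independent evidence. Resident macrophages along vessels take up material from the blood side and the matrix, and many carry the hyaluronan receptor Lyve1 and the folate receptor Folr2. Macrophages newly derived from monocytes carry lysozyme (*Lyz1*) and the chemokine receptor *Ccr2*, lose both as they mature, and carry less of most of these resident genes. In adipose tissue, resident and recruited macrophages lie side by side, and the balance between them is known to shift with diet. Position along vessels was not measured in these data.

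ATMs came from the epididymal fat of male C57/BL6 mice (C57BL/6JOlaHsd in the methods) of 8 to 12 weeks, kept on control diet (CD) or fed a high-fat diet (HFD) overnight. The fat was digested with collagenase, and CD45+Lin-Ly6Clow/-F4/80+ cells were sorted, where Lin includes TCRb, SiglecF and Ly6G. The cells of 3 mice were pooled for each diet and run as 1 droplet library, so no spread between animals can be given and no p-value was computed. The CD library held 15003119 unique molecular identifiers (UMIs, 1 for each captured transcript) in 4459 barcodes and the HFD library 9164686 in 3163. Cells with 200 to 3500 genes and at most 10% mitochondrial UMIs were kept, which left 2364 CD and 2021 HFD cells. The median depth of a kept cell was 4490.5 UMIs for CD and 2792 for HFD.

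The kept cells were split by genes that are not among the 9. Cells with under 10 UMIs of *Lyz1* were called Lyz1-low (1809 CD and 1349 HFD cells) and the others Lyz1-high (555 and 672 cells). Lyz1-low cells without a UMI of *Ccr2* were called Ccr2- (1014 and 821 cells) and those with at least 1 Ccr2+ (795 and 528 cells). Both limits depend on depth, and the HFD cells were shallower: Lyz1-low cells had a median of 3707 UMIs in CD and 1839 in HFD. Of the Lyz1-low cells, 18.2% in CD and 57.8% in HFD had under 1000 genes. *Lyz1* itself stood at 283 CPM in the CD and 573 CPM in the HFD Lyz1-low cells, where CPM is the summed UMIs of a gene for every 1000000 summed UMIs of the cells.

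The Lyz1-low cells carried macrophage markers in both libraries. The F4/80 gene *Adgre1* was at 333 and 319.9 CPM, and none of the 6 macrophage markers changed by 1.5-fold or more. Of the markers of lymphatic endothelium, which also makes Lyve1, *Flt4*, *Ccl21a* and *Mmrn1* were at 0 in both libraries and *Prox1* had 2 UMIs in each. Markers of other cells did differ between the libraries: all 4 stromal markers together summed to 113 CPM in CD and 8.59 CPM in HFD Lyz1-low cells, with *Pdgfra* at 0 in HFD. All 3 cycling markers summed to 78.7 and 22.3 CPM, all 3 monocyte markers to 55.2 and 219 CPM, and all 7 dendritic markers to 52.0 and 119 CPM. The 4 peritoneal macrophage markers summed to 14.8 and 37.0 CPM, and in the Ccr2- cells to 12.5 and 65.5 CPM, with the defining gene *Gata6* at 0 and 3 UMIs there and *Icam2* at 8.75 and 39.8 CPM. All 3 platelet markers summed to 5.58 and 31.5 CPM in Lyz1-low cells. Values without cells that carry stromal, cycling, peritoneal macrophage or platelet markers, or at least 2 markers of another type such as dendritic cells, stand beside the results below. Cells with monocyte markers were not left out in any setting. In the Ccr2+ cells, the monocyte markers summed to 72.5 CPM in CD and 373 CPM in HFD, and their part in the members' levels was not tested.

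On GRCm38, *Lyve1* lies at chr7:110850607-110863239, *Folr2* at chr7:101839988-101857194, *Rcn3* at chr7:45082913-45092221, *Fcna* at chr2:25624666-25628030 and *F13a1* at chr13:36867178-37050244, all on the minus strand. *Cbr2* lies at chr11:120729489-120732114 and *Ednrb* at chr14:103814625-103844402 on the minus strand, and *Selenop* at chr15:3268547-3280508 and *Ninj1* at chr13:49187485-49196244 on the plus strand. The promoters of the members that fell most in the Lyz1-low cells of HFD mice (*Cbr2* and *Folr2*) and of those that moved least (*Ednrb* and *Fcna*) are printed to show the sequence around their starts. They are RefSeq sequences of GRCm38.p6, from 250 bases before to 50 after a transcription start, and 8 of the 9 genes matched an entry. All are on the minus strand: *Cbr2* at chr11:120731972-120732271, *Folr2* at chr7:101857141-101857440 for 1 start and chr7:101845282-101845581 for the other, *Ednrb* at chr14:103843652-103843951 and *Fcna* at chr2:25627925-25628224. They read 5′ to 3′ along the gene. Capitals mark GAGGAA, a core that the myeloid factor PU.1 binds, and TGCTGA, a core that MAF factors bind, found on either strand (TCAGCA is TGCTGA on the other strand).
Cbr2: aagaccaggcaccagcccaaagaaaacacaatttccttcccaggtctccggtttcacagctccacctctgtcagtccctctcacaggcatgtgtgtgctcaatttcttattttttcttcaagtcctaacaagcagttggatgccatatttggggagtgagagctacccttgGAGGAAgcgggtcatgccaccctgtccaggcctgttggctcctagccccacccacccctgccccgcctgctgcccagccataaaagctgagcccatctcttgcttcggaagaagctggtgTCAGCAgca
Folr2, the first start: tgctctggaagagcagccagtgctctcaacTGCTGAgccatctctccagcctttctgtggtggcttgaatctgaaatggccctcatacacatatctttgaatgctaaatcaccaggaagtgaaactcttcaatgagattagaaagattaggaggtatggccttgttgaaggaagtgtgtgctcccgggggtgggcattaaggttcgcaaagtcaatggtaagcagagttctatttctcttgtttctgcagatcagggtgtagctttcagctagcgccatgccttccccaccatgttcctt
Folr2, the second start: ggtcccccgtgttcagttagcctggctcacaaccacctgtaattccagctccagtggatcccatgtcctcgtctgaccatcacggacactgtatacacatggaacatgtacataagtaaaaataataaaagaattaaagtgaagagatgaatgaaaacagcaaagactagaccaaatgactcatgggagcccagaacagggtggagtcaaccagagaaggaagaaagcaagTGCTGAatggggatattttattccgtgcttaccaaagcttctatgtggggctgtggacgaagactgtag
Ednrb: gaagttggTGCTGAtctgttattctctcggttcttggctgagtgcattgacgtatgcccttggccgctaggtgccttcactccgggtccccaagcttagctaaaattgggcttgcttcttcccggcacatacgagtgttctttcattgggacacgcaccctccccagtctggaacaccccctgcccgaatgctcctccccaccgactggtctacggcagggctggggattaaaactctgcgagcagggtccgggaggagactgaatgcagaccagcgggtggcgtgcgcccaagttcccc
Fcna: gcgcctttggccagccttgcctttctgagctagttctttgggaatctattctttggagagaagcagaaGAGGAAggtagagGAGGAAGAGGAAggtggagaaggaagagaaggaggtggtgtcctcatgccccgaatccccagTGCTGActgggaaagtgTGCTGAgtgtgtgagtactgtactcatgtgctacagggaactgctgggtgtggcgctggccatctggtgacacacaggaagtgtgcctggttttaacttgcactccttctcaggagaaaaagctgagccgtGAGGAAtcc
The *Cbr2* window held 1 GAGGAA and 1 TGCTGA, each *Folr2* window held 1 TGCTGA and no GAGGAA, and the *Ednrb* window held 1 TGCTGA and no GAGGAA. The *Fcna* window held 4 GAGGAA, of which a pair stand end to end, and 2 TGCTGA. At the first listed start, 4 of the 8 members with an entry held GAGGAA and 4 held TGCTGA. Among 32851 mouse promoters of the same length, 28.3% held GAGGAA and 19.5% held TGCTGA. A match is a description of the letters and not a bound site, and members that fell most and members that moved least both carried such matches.

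The 9 genes were a small and graded share of the RNA. In all kept cells, they made up 0.843% of the UMIs in CD and 0.356% in HFD. In CD the share was 1.55% in Lyz1-low Ccr2- cells, 0.923% in Lyz1-low Ccr2+ cells and 0.261% in Lyz1-high cells, and in HFD it was 0.94%, 0.443% and 0.122%. *Selenop*, which encodes the secreted selenium carrier, gave the largest number of these UMIs, with 48.8% of the members' UMIs in CD and 54.8% in HFD Lyz1-low cells. *Cbr2* went from 5.54% to 2.11% and *Folr2* from 13.8% to 8.83% of the members' UMIs, while *Ednrb* went from 3.68% to 5.37% and *Fcna* from 5.28% to 7.06%. The make-up of the set was thus not the same in the 2 libraries. Counts were of 3′ ends and were not divided by gene length.

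How strictly these genes mark Lyz1-low cells was described first. The members were chosen as resident genes with earlier results of these data known. A higher level in Lyz1-low cells, or in Ccr2- cells below, is therefore no independent test, and only its size is described. All 9 were higher in Lyz1-low than in Lyz1-high cells of the same library by 1.5-fold or more, in CD and in HFD, where 23.9% and 23.1% of all genes tested were so. No member was lower, where 7.94% of all genes in CD and 5.9% in HFD were. The members' median log2 ratio was 2.53 in CD and 3.08 in HFD, and that of all genes 0.19 and 0.20. *Rcn3*, a calcium-binding protein of the secretory pathway, had the highest ratio in CD: it stood at 216 CPM (95% interval 206 to 227) in Lyz1-low and 24.6 CPM (20.3 to 29.4) in Lyz1-high cells, a log2 ratio of 3.14 (2.87 to 3.42). *Cbr2*, a carbonyl reductase, had the highest in HFD, with 140.1 CPM in Lyz1-low and 11.8 CPM in Lyz1-high cells, a log2 ratio of 3.58 (3.17 to 4.01) whose interval overlapped those of *Lyve1* (3.55) and *Rcn3* (3.54). These HFD Lyz1-high levels of *Cbr2* (11.8 CPM), *Lyve1* (17.6 CPM) and *Rcn3* (10.7 CPM) were not above those of 27 HFD cells with at least 3 UMIs of the monocyte gene *Plac8* (36.6, 29.3 and 21.96 CPM). The same held for *Folr2* (60.5 against 110 CPM), *Selenop* (637 against 1223 CPM), *Ednrb* (42.2 against 73.2 CPM) and *Ninj1* (121 against 256 CPM), but not for *Fcna* and *F13a1*. The *Plac8* levels rest on few UMIs, with 5 of *Cbr2*, 4 of *Lyve1* and 3 of *Rcn3*, and those of *Lyve1* lay in 3.70% of the cells. Set against 11 HFD cells with at least 2 dendritic markers, the Lyz1-high level of *Cbr2* was above (9.98 CPM there, from 1 UMI), as were *Fcna* and *F13a1*, and the other members named were not. The dendritic levels of *Folr2* (10 UMIs) and *Ednrb* (5 UMIs) each rest on 9.09% of those cells. For *Fcna*, the *Plac8* level was 36.6 CPM from 5 UMIs (11.9 to 85.4), an interval that held its Lyz1-high level of 65.7 CPM. The ratios of all these members but *F13a1* against HFD Lyz1-high cells thus have no firm size or order. In CD, *Selenop* was at 1217 CPM in Lyz1-high and 1462 CPM in *Plac8* cells, and the others were above those cells. In 14 CD cells with at least 2 dendritic markers, *Selenop* was at 527 CPM, and only *Rcn3* (28.7 CPM, from 3 UMIs) was not below its Lyz1-high level. *F13a1*, which encodes the transglutaminase subunit of clotting factor XIII, had the lowest ratio in both libraries. It had a UMI in 88.1% of CD and 64.3% of HFD Lyz1-high cells. It stood at 1465 and 562 CPM in CD, a log2 ratio of 1.38 (1.32 to 1.44), and at 687 and 255 CPM in HFD, a log2 ratio of 1.43 (1.33 to 1.53). These intervals, and all others below, are 95% intervals for counting error only.

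The members followed *Lyz1* in steps. When cells were placed in 6 bins by *Lyz1* UMIs, from 0 to at least 40, the level of 8 members went down from each bin to the next in both libraries. For the hyaluronan receptor *Lyve1*, CD levels were 513, 461, 327, 149, 112 and 35.2 CPM, and HFD levels were 267, 217, 113, 46.5, 27.2 and 10.9 CPM. *F13a1* had the shallowest course, from 1596 to 429.7 CPM in CD and from 801 to 226 CPM in HFD. *Rcn3* in HFD was the exception, with 124 CPM at 0 UMIs of *Lyz1* and 159.7 CPM at 1 to 2. Cells with more *Lyz1* UMIs were also deeper, with medians of 3213 to 9913 UMIs from the lowest to the highest bin in CD and 1572 to 8078.5 in HFD.

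**Figure D1:**
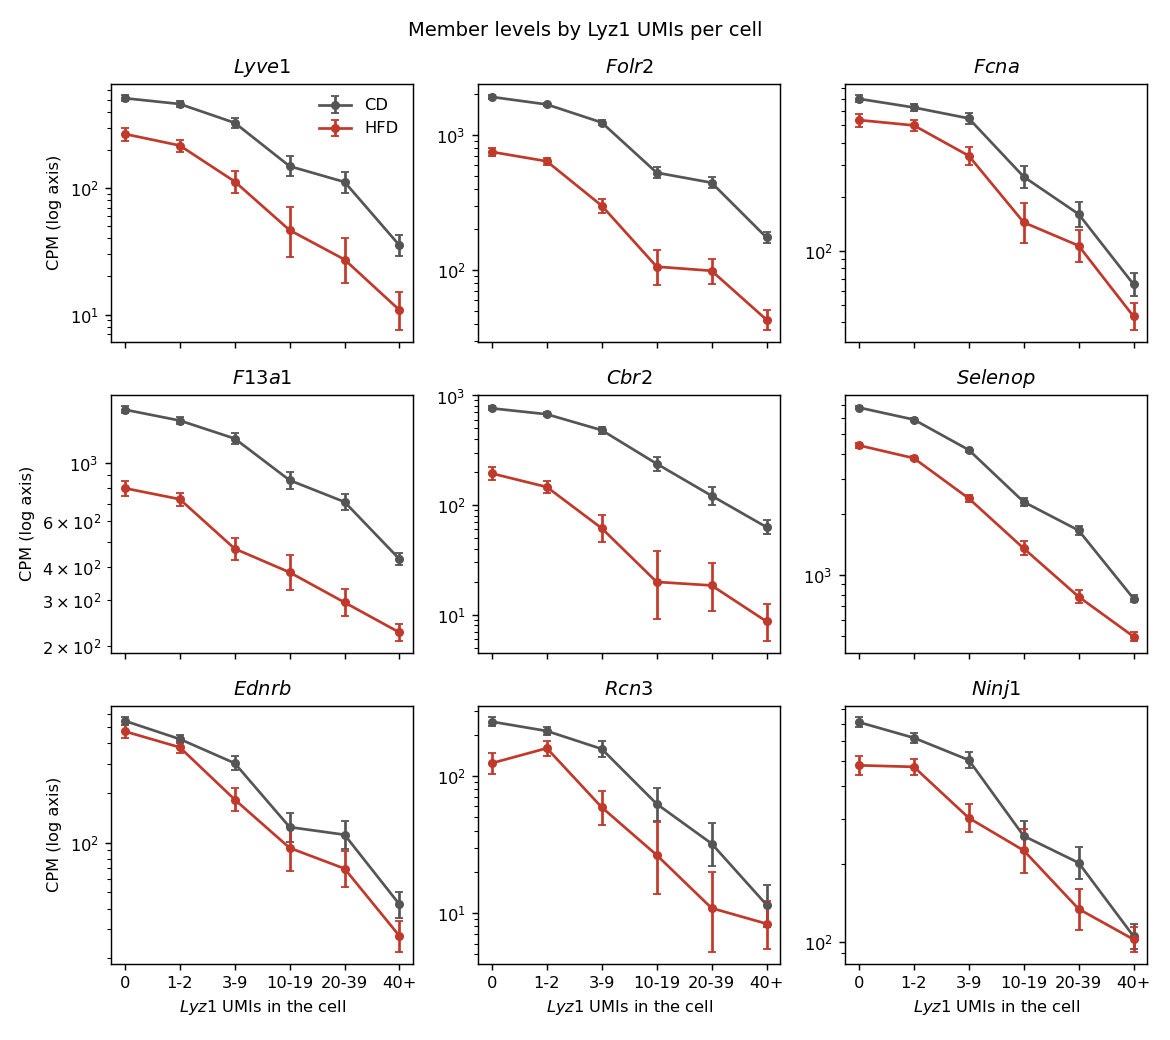
Level of each member in CPM (log axis, a scale of its own in each panel) against the *Lyz1* UMIs of the cell, in CD (grey) and HFD (red) libraries, with 95% Poisson intervals of the summed counts. Levels go down to the right, as for *Lyve1* from 513 to 35.2 CPM in CD, and the HFD line lies far below the CD line for *Cbr2*. For *Ednrb* the lines are close at 0 UMIs of *Lyz1* (544 CPM in CD and 470 CPM in HFD) and further apart at 3 to 9 (302 and 182 CPM).

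*Ccr2* divided the Lyz1-low cells further. In CD, 7 of 9 members were higher by 1.5-fold or more in Ccr2- than in Ccr2+ cells, against 11.1% of all genes, and in HFD 9 of 9, against 17.4%. No member was lower, where 5.8% of all genes in CD and 7.85% in HFD were. *Ednrb*, the endothelin B receptor, had the largest ratio in both. It was at 633 CPM in Ccr2- and 288 CPM in Ccr2+ cells of CD (log2 1.13, 1.03 to 1.24) and at 588 and 171 CPM in HFD (log2 1.79, 1.60 to 1.97). *Rcn3* had the smallest, with 246 and 191 CPM in CD (log2 0.36, 0.22 to 0.50) and 164 and 92.1 CPM in HFD (log2 0.83, 0.55 to 1.11). *Ninj1*, a membrane protein of cell adhesion that also takes part in membrane rupture, was the other member within 1.5-fold in CD, at 766 and 516 CPM. Cells without a *Ccr2* UMI were shallower, with a median of 3091.5 UMIs against 4855 in CD and 1470 against 2849.5 in HFD. After each cell was thinned to 1000 UMIs, the CD count was 3 of 9.

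**Figure D2:**
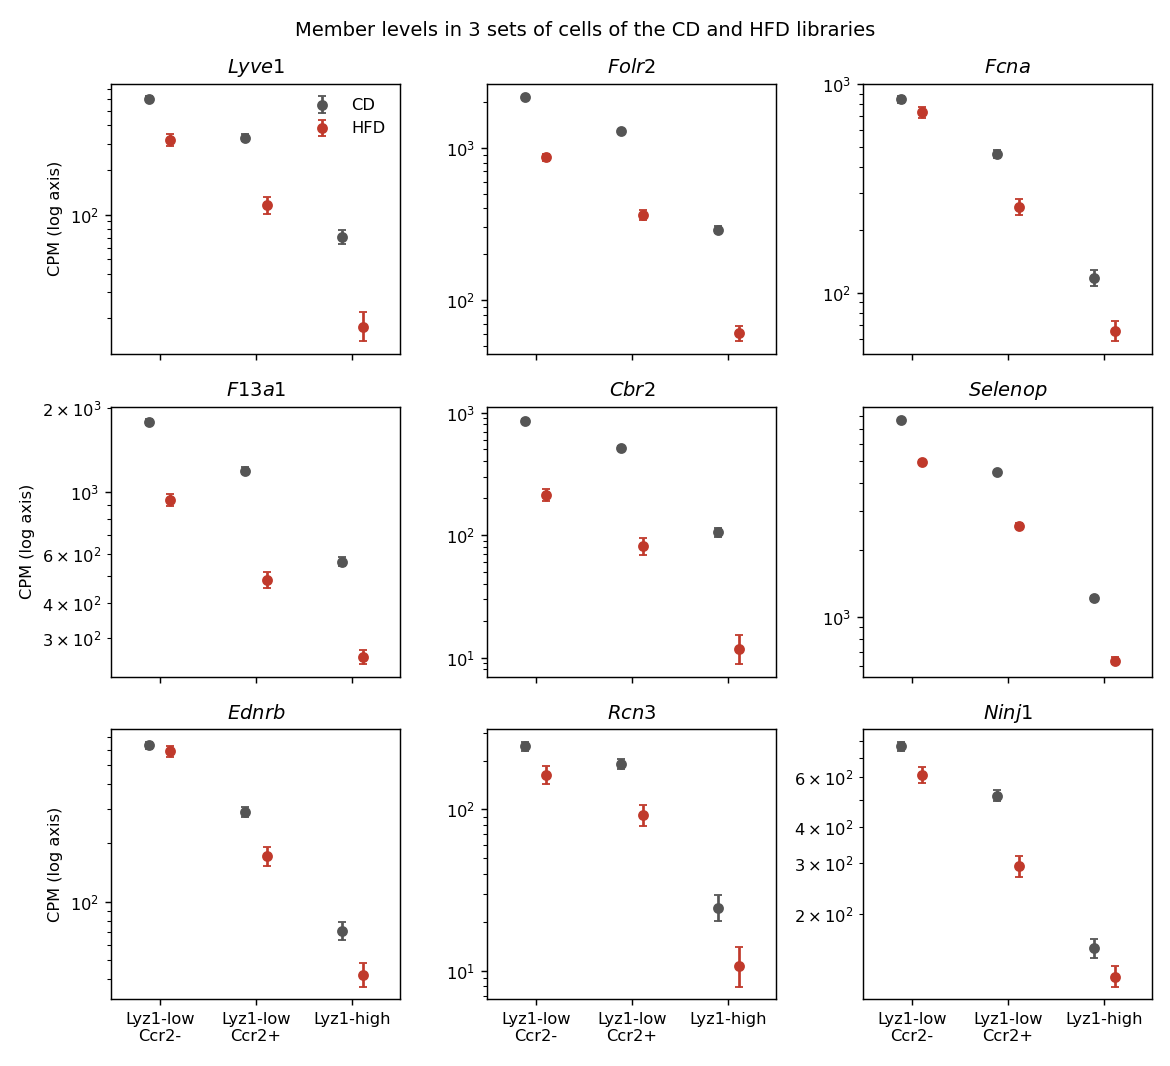
Level of each member in CPM (log axis, a scale of its own in each panel) in Lyz1-low Ccr2-, Lyz1-low Ccr2+ and Lyz1-high cells of the CD (grey) and HFD (red) libraries, with 95% Poisson intervals. Each member is highest in Lyz1-low Ccr2- cells of both libraries, and *Ednrb* there is at 633 CPM in CD and 588 CPM in HFD, while *Cbr2* is at 858 and 213 CPM.

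Overnight HFD was set against CD in the Lyz1-low cells. Of the 9 members, 6 were lower in HFD by 1.5-fold or more and none higher, where 7.21% of the 9084 genes tested were lower and 7.84% higher. The members' median log2 ratio was -0.80, and that of all genes 0.04. Since the members were chosen with earlier results of these data known, these counts are descriptions and no independent test. *Cbr2* fell most, from 671 CPM (653.0 to 690.2) in CD to 140.1 CPM (128 to 153) in HFD, a log2 ratio of -2.26 (-2.40 to -2.13). Only 0.220% of all genes tested had a lower ratio. *Folr2*, the folate receptor beta, fell from 1675 to 587 CPM, a log2 ratio of -1.51 (-1.58 to -1.44). *Lyve1* fell from 455 to 207 CPM (log2 -1.14, -1.26 to -1.02) and *F13a1* from 1465 to 687 CPM (log2 -1.09, -1.16 to -1.03). *Rcn3* (216 to 124 CPM, log2 -0.80) and *Selenop* (5914 to 3643 CPM, log2 -0.70) fell less, and both came within 1.5-fold (-0.55 and -0.56) when every cell was thinned to 1000 UMIs and shallower cells were left out.

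The other 3 members were within 1.5-fold, but in cells with at least 1000 genes they too were past it, with *Ednrb* at -0.83, *Fcna* at -0.65 and *Ninj1* at -0.61. *Ninj1* was at 629.9 CPM in CD and 435 CPM in HFD (log2 -0.53, -0.62 to -0.45). *Fcna*, a ficolin that starts the lectin pathway of complement, was at 639 and 469 CPM (log2 -0.44, -0.53 to -0.36). *Ednrb* was at 445 and 357 CPM (log2 -0.32, -0.41 to -0.22) and had the ratio nearest to 0. The intervals of the 9 ratios all lay below 0, so none was higher in HFD, and those of *Cbr2* and *Folr2* overlapped no other member's. From summed UMIs, fewer cells that carry a gene and less of it in each cannot be told apart.

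The same members moved least in the Ccr2- cells. There, 6 of 9 were lower in HFD, where 7.39% of all genes were, and none was higher, where 11% were. The log2 ratios there had *Cbr2* at -2.01 (-2.18 to -1.85), *Folr2* at -1.31, *F13a1* at -0.93 and *Lyve1* at -0.92. *Selenop* at -0.62 (-0.66 to -0.59) and *Rcn3* at -0.59 (-0.80 to -0.38) were only just past 1.5-fold, which is 0.585 on this scale. *Ednrb* was at 633 CPM in CD and 588 CPM in HFD, a log2 ratio of -0.10 whose interval, -0.22 to 0.01, held 0. *Fcna* was at 847 and 732 CPM (log2 -0.21, -0.31 to -0.11) and *Ninj1* at 766 and 611 CPM (log2 -0.33, -0.44 to -0.22). With cells thinned to 1000 UMIs, *Selenop* was at -0.48 and *Rcn3* at -0.43, within 1.5-fold, 4 members were lower and *Fcna* was at 0.02. The Ccr2- cells were of unlike depth, with under 1000 genes in 23.6% of CD and 72.7% of HFD cells. In those of 2000 to under 4000 UMIs (483 CD and 195 HFD), the log2 ratio of *Ednrb* was -0.31 (-0.49 to -0.13). That of *Fcna* was -0.17 (-0.33 to -0.003) and that of *Ninj1* -0.02 (-0.19 to 0.15). In those of 4000 to under 8000 UMIs (299 CD and 56 HFD), *Ednrb* was at 550 and 275 CPM, past 1.5-fold. *Fcna* was at -0.41 and *Ninj1* at -0.60 there. The interval of *Ednrb* held 0 in the bins under 2000 UMIs and from 8000 UMIs on (16 CD and 4 HFD cells). In that last bin, *Fcna* was at 0.22 (-0.43 to 0.82) and *Ninj1* at 0.59 (-0.21 to 1.33).

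In the Ccr2+ cells, all 9 were lower in HFD by 1.5-fold or more, where 7.96% of all genes were lower and 6.17% higher. *Ednrb* had the ratio nearest to 0, with 288 and 171 CPM (log2 -0.75, -0.94 to -0.58), and *Cbr2* the lowest, with 516 and 81.2 CPM (log2 -2.67, -2.91 to -2.43). With cells thinned to 1000 UMIs, 7 were lower and *Fcna* (-0.58) and *Ednrb* were within 1.5-fold, and *Ednrb* was at -0.38 as a mean over cells. The counting intervals of the ratio in Ccr2+ cells lay wholly below those in Ccr2- cells for all 9 members, which covers counting error and no spread between animals. Ccr2+ cells were also deeper, with medians of 2849.5 against 1470 UMIs in HFD and 4855 against 3091.5 in CD. The ratios differed by depth too, and the parts of *Ccr2* and depth were not tested. In the Lyz1-high cells, 8 of 9 were lower, where 6.05% of all genes were lower and 4.81% higher. *Cbr2* went there from 105 to 11.8 CPM (log2 -3.16, -3.60 to -2.76), a size that rests on an HFD level not above that of *Plac8* cells. The HFD levels there of *Lyve1*, *Folr2*, *Selenop*, *Ednrb*, *Rcn3* and *Ninj1* were not above those of *Plac8* cells either. The HFD level of *Fcna* (65.7 CPM) lay within the interval of its level in *Plac8* cells (11.9 to 85.4 CPM). The sizes of these ratios are thus not firm. *Ninj1* went from 151 to 121 CPM (log2 -0.33, -0.49 to -0.17), within 1.5-fold. In all kept cells, where the shares of the cell sets also entered, all 9 were lower, and 8.94% of all genes were lower and 4.7% higher. Thinning left 6 lower, with *Fcna* at -0.47 and *Ninj1* at -0.57, and means over cells left 7, with *Ednrb* at -0.30.

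**Figure D3:**
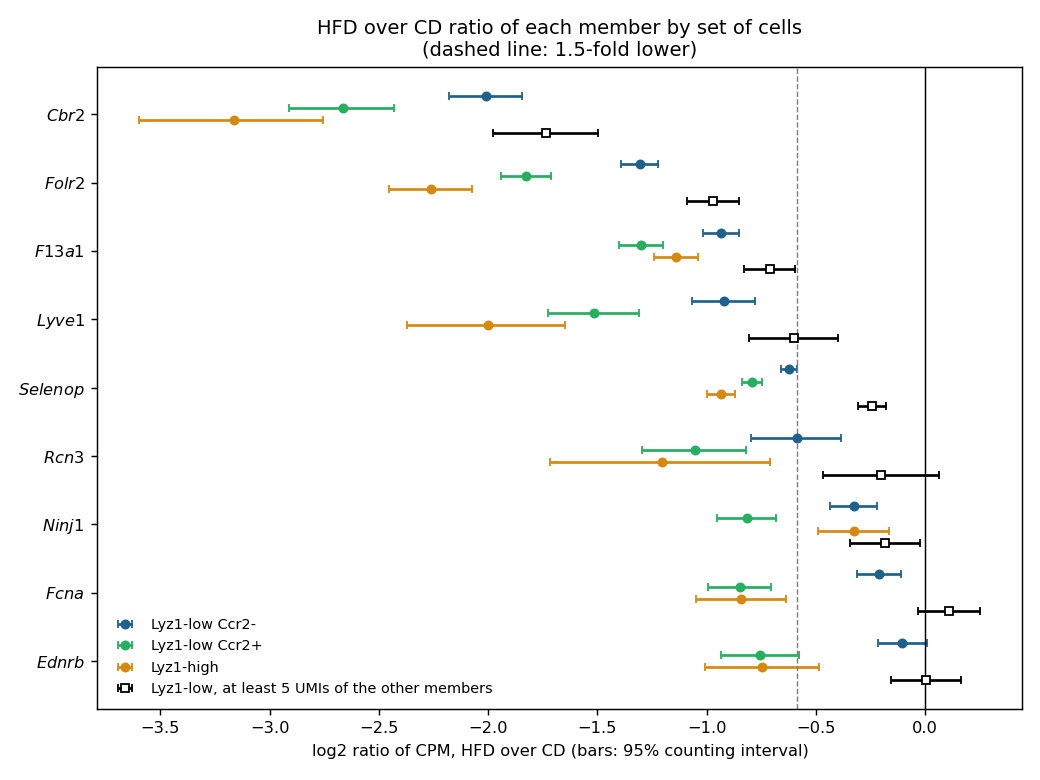
Log2 ratio of CPM, HFD over CD, of each member in Lyz1-low Ccr2- (blue), Lyz1-low Ccr2+ (green) and Lyz1-high cells (orange), and in Lyz1-low cells with at least 5 UMIs of the other 8 members (open squares), with 95% counting intervals. *Cbr2* lies left of the other members in each set, at -2.01 in Ccr2- and -2.67 in Ccr2+ cells, and *Ednrb* lies on the line of no change in the open squares and near it, at -0.10, in Ccr2- cells.

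To look at cells rich in the other members, Lyz1-low cells were thinned to 1000 UMIs and those with at least 5 UMIs of the other 8 members were taken for each member. This kept 65.3 to 85.7% of the CD cells and 34.4 to 65.7% of the HFD cells. The limit rests on the members themselves, which were lower in HFD, and for members other than *Selenop* largely on *Selenop*. The cells taken are therefore not matched between the libraries, and the ratios below describe only the cells past this limit. In these cells *Cbr2* was at 778 CPM in CD and 234 CPM in HFD, a log2 ratio of -1.73 (-1.98 to -1.50). *Folr2* was at -0.97 (-1.09 to -0.85), *F13a1* at -0.71 (-0.83 to -0.60) and *Lyve1* at -0.60 (-0.80 to -0.40), each past 1.5-fold. *Ednrb* was at 655 and 657 CPM (log2 0.00, -0.16 to 0.17), and *Fcna* at 807 and 871 CPM (log2 0.11, -0.03 to 0.25). *Selenop* (-0.24), *Rcn3* (-0.20) and *Ninj1* (-0.18) lay within 1.5-fold. Among cells rich in the other members, *Cbr2* and *Folr2* were thus lower in HFD, and the intervals of *Ednrb* and *Fcna* held 0. With at least 10 UMIs of the other members, *Ednrb* was at -0.01 (-0.21 to 0.18), while *Fcna* was at 0.32 (0.16 to 0.48), an interval above 0, and *Lyve1* was at -0.47, within 1.5-fold.

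The ratio of *Cbr2* to *Ednrb* needs no total count. For each 100 UMIs of *Ednrb*, CD cells held 136 of *Cbr2* (128 to 143) in the Lyz1-low Ccr2- and 179 (167 to 192) in the Lyz1-low Ccr2+ set. HFD cells held 36.2 (31.8 to 41.1) and 47.6 (39.1 to 57.7). Both HFD values lay below both CD values, with intervals that did not overlap. *Cbr2* and *Ednrb* are, however, the members with the lowest and the highest ratio of HFD over CD in both of these sets. A lower value in HFD within each set follows from that, so it restates those ratios and is no further test.

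The fall also differed by the depth of the cell. In Lyz1-low cells of 1000 to under 2000 UMIs (243 CD and 473 HFD), the log2 ratio was -0.01 for *Ednrb* (-0.23 to 0.21), 0.08 for *Fcna* (-0.14 to 0.30) and -0.06 for *Ninj1* (-0.31 to 0.20), while it was -1.67 for *Cbr2* and -1.02 for *Folr2*. In cells of 4000 to under 8000 UMIs (692 CD and 199 HFD), it was -1.46 for *Ednrb* (-1.70 to -1.22), -0.91 for *Fcna*, -0.94 for *Ninj1*, -3.19 for *Cbr2* and -2.16 for *Folr2*. *Ednrb* went from 387 CPM in CD to 141 CPM in HFD in these deeper cells. In cells of 2000 to under 4000 UMIs (698 CD and 370 HFD), the log2 ratio was -0.70 for *Ednrb* (-0.86 to -0.55), past 1.5-fold. It was -0.45 for *Fcna* (-0.59 to -0.31) and -0.31 for *Ninj1* (-0.45 to -0.17) there. The members within 1.5-fold in the Lyz1-low cells as a whole were therefore lower in HFD from 2000 UMIs on. This was clearest among the cells of 4000 to under 8000 UMIs, which were fewer in HFD. *Lyz1* and depth rise together in these libraries, and their parts were not tested.

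Cells with markers of other types, except monocyte markers, were left out in turn. Without the cells that held a stromal or cycling marker (251 CD and 85 HFD), 7 of 9 members were lower in Lyz1-low cells, 6 of 9 in their Ccr2- and 9 of 9 in their Ccr2+ cells. Without the 41 CD and 29 HFD cells with at least 2 markers of another cell type, the counts were 6, 5 and 9. Without the cells that held a peritoneal macrophage or platelet marker (131 CD and 133 HFD), they were 6, 4 and 9, with *Selenop* at -0.57 and *Rcn3* at -0.56 in Ccr2- cells, within 1.5-fold, and *Cbr2* at -1.94 and *Ednrb* at -0.13 there. No share of all genes is given for these smaller sets of cells, so these counts are read only against the members' own counts above. The heat-shock genes *Hspa1a* (466 CPM in CD and 905 CPM in HFD) and *Hspa1b* (log2 ratio 1.69) were higher in HFD Lyz1-low cells, while the other 12 of 14 stress and dissociation genes were within 1.5-fold. Their part in the members' levels was not tested.

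The share of cells with a UMI also dropped furthest, in proportion, for *Cbr2*. After thinning to 1000 UMIs, *Cbr2* was detected in 45.3% of CD and 14.6% of HFD Lyz1-low cells, *Folr2* in 73.3% and 42.0%, and *Lyve1* in 33.7% and 19.2%. *Ednrb* was detected in 38.5% and 29.9%, *Fcna* in 39.6% and 32.7%, and *Selenop* in 93.2% and 84.4%. Without thinning, *Cbr2* was detected in 76.3% and 24.5% and *Ednrb* in 65.0% and 42.0%. Cells with at least 3 UMIs of the monocyte gene *Plac8*, which should be low in the resident genes, gave a reference level. Free RNA and RNA of their own cannot be told apart in them, and *F13a1* was found after thinning in 27.8% of them in CD and 22.2% in HFD. Of 18 such CD cells with a median of 6909.5 UMIs, 1 had a UMI of *Cbr2* after thinning (5.56%) and 2 of *Folr2* (11.1%). Of 27 such HFD cells with a median of 4851 UMIs, *Cbr2* and *Folr2* were each found in 1 (3.70%) and *Ednrb* in 2 (7.41%). *Selenop* was found in 55.6% of them in both libraries, so its detection alone did not mark a cell. In HFD Lyz1-high cells, *Cbr2* was detected in 0.749% after thinning, not above the share in these reference cells, which rests on 1 of 27 cells (0.0937 to 18.97%).

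The members were detected together. They were chosen as resident genes with earlier results of these data known, and Lyz1-low cells hold both Ccr2- and Ccr2+ cells. An excess is therefore no independent test, and only its size is described. In CD Lyz1-low cells thinned to 1000 UMIs, the 36 pairs were all found in the same cell more often than the product of their shares gives, by a median of 1.16 times, and 11 pairs by at least 1.2 times, where 0.34% of all gene pairs tested reached 1.2. In HFD the median was 1.30 times and 27 of 36 pairs reached 1.2, where 4.75% of all pairs tested did. The pairs tested were those of 542 genes in CD and 801 in HFD whose share of cells lay within the range of the members' shares, members included. The 2 background shares thus come from different sets of genes. *Lyve1* had the highest median over its 8 pairs, with 1.28 times in CD and 1.60 times in HFD. The highest pair was *Lyve1* with *Ednrb* in CD (1.42 times) and *Lyve1* with *Fcna* in HFD (1.85 times). *Selenop* had the lowest medians (1.06 and 1.13 times), since a gene found in nearly all cells leaves little room. The ratio can be larger where shares are smaller, so it was not compared between the libraries as a difference and does not rank the members. *Folr2*, found in more cells than *Lyve1*, had the higher correlation with the other members: 0.73 against 0.59 in CD and 0.57 against 0.47 in HFD. Within Ccr2- cells alone, the median was 1.07 times in CD and 1.13 times in HFD, and within Ccr2+ cells 1.31 and 1.44 times. In Ccr2- cells, 5 of 36 pairs in CD and 12 of 36 in HFD reached 1.2, and *Ednrb* with *Rcn3* was at 0.91 times in CD. In Ccr2+ cells, 27 of 36 pairs in CD and 31 of 34 tested in HFD did. The share of all gene pairs was not computed for these sets.

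**Figure D4:**
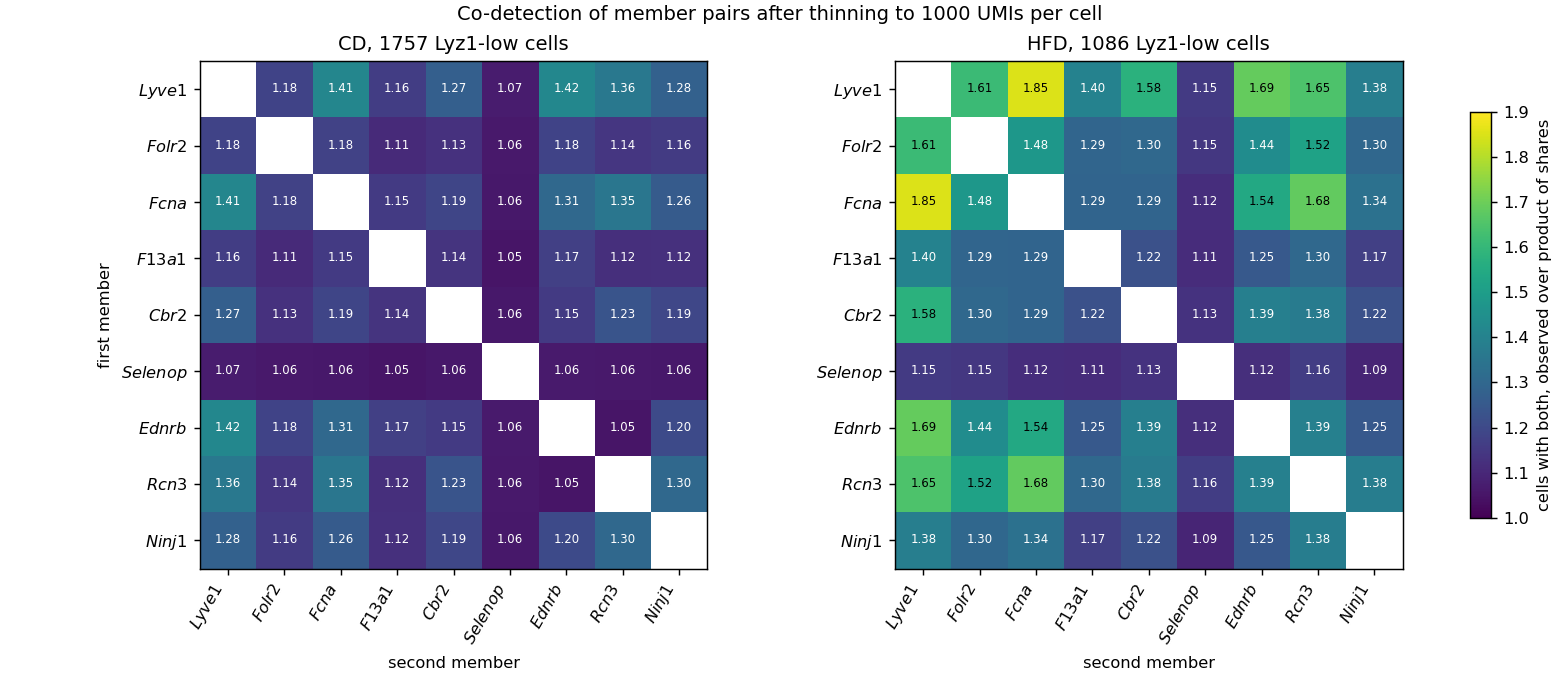
Share of cells with a UMI of both members over the product of their single shares, for all 36 pairs, in Lyz1-low cells of the CD (1757 cells) and HFD (1086 cells) libraries thinned to 1000 UMIs. All values are above 1, the *Selenop* row is nearest to 1, and the highest values are for *Lyve1* with *Ednrb* in CD (1.42) and with *Fcna* in HFD (1.85).

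Members were also counted in each thinned cell, from the same detections, so this is no further test of their being found together. At least 6 of 9 were found in 36.7% of CD Lyz1-low cells (34.4 to 38.96%), where independent detection at the same shares gives 25.2%, and in 15.5% of HFD ones (13.4 to 17.8%), where it gives 4.31%. None was found in 3.76% and 7.55%. In Lyz1-low Ccr2- cells the median was 5 members in CD and 4 in HFD, in Ccr2+ cells 4 and 2, and in Lyz1-high cells 1 in both. At least 6 members were found in 1.98% of CD (0.993 to 3.52%) and 0.150% of HFD Lyz1-high cells (0.00379 to 0.831%). Doublets were not removed other than by the upper limit on genes, so some of these may be 2 cells in 1 droplet.

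**Figure D5:**
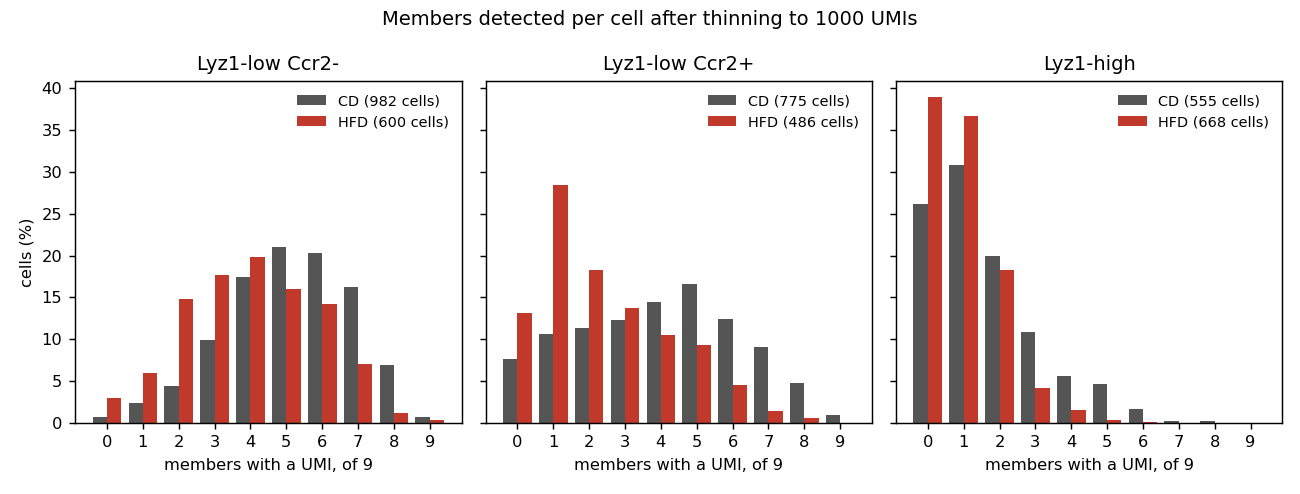
Share of cells (%) by the number of the 9 members with a UMI after thinning to 1000 UMIs, in CD (grey) and HFD (red) libraries, for Lyz1-low Ccr2-, Lyz1-low Ccr2+ and Lyz1-high cells. Bars of Lyz1-low Ccr2- cells centre on 5 members in CD and 4 in HFD, and those of Lyz1-high cells lie mostly at 0 and 1.

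*Timd4*, the Tim4 gene of the study's resident ATMs, was at 66.5 CPM in CD and 22.6 CPM in HFD Lyz1-low cells. In thinned CD Lyz1-low cells, *Fcna* (1018 against 628 CPM) and *Lyve1* (699 against 451 CPM) were higher by 1.5-fold in the 329 cells with a *Timd4* UMI than in the 1428 without. The other 7 members were within 1.5-fold, from *Rcn3* at 261 against 238 CPM, whose intervals overlapped, to *Cbr2* at 884 against 638 CPM. A *Timd4* UMI was counted before thinning, so deeper cells had more chance of one. The share of all genes past 1.5-fold was not computed for this split in either library, so nothing is read from how many members were past it. In HFD only 56 such cells were left: *Fcna* was at 1286 CPM (1006 to 1619) in them and at 588 CPM without *Timd4*. *Folr2* (1214 and 707 CPM), *Cbr2* (321 and 167 CPM), *Ninj1* (786 and 489 CPM) and *Ednrb* (714 and 468 CPM) were also higher by 1.5-fold in them, with intervals that overlapped for *Cbr2* and *Ednrb*. The other 4 were within it, *F13a1* at 839 CPM (617 to 1116) and 887 CPM. *Ednrb* in the *Timd4* cells was at 723 CPM in CD and 714 CPM in HFD, and *Cbr2* at 884 and 321 CPM.

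The genes most like the members over single Lyz1-low cells were found by the Pearson correlation with the members' mean log level, over 1809 CD and 1349 HFD cells and 2236 genes. Cells of a library share its chemistry and differ in depth, so the values are descriptions. The 10 highest by the lower of the 2 libraries were *Ltc4s* (0.64 in CD and 0.54 in HFD), *Apoe* (0.60 and 0.53), *C1qa* (0.64 and 0.53), *C1qc* (0.63 and 0.50), *Cd209f* (0.51 and 0.47), *Pf4* (0.60 and 0.47), *Fcgrt* (0.60 and 0.46), *C1qb* (0.54 and 0.45), *Serinc3* (0.49 and 0.43) and *Igfbp4* (0.51 and 0.42). Likeness over cells did not fix how a gene moved: *Cd209f*, a C-type lectin, had a log2 ratio of HFD over CD of -1.94 in Lyz1-low cells, and *Apoe*, the apolipoprotein, was at 12431 and 12390 CPM. Against the mean of the other 8 members, *Folr2* had the highest correlation in both libraries (0.73 in CD and 0.57 in HFD), *Rcn3* the lowest in CD (0.40, and 0.32 in HFD) and *Cbr2* the lowest in HFD (0.31, and 0.56 in CD).

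Of 25 other resident genes, 12 were lower and none higher in HFD Lyz1-low cells, with a median log2 ratio of -0.58, where 7.21% of all genes were lower and 7.84% higher. The chemokine *Ccl8* went from 421 to 51.6 CPM (-3.03, -3.26 to -2.81) and the lectin *Cd209d* from 509.9 to 126 CPM (-2.02). The scavenger receptor *Cd163* (399 and 464 CPM) was not lower. Of 13 recruited genes tested, 9 were higher and none lower in HFD. The list includes *Lyz1*, by which the Lyz1-low cells were cut, and *Ccr2*, which split them further. *Lyz1* was among those higher, and since its UMIs are bounded by the cut in libraries of unlike depth, it adds nothing to that count. The same cut was looser in the shallower HFD cells, and its part in the levels of the other genes was not tested. The list was also chosen with earlier results of these data known, so the count is a description and no independent test. *Ear2*, a ribonuclease of recruited ATMs, went from 270 to 666 CPM (1.30, 1.22 to 1.39).

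The relatives of each member were counted in the same Lyz1-low cells, where 7.21% of all genes were lower and 7.84% higher in HFD. These lists are short, and nothing is read from their shares. Of 4 carbonyl reductase genes beside *Cbr2*, only *Dcxr* was lower (59.6 and 24.9 CPM, log2 -1.26, -1.61 to -0.92). Of 10 folate genes tested beside *Folr2*, 2 were lower and 2 higher, and the folate hydrolase *Ggh*, the most counted of them, was at 103 and 99.4 CPM. Of 5 hyaluronan genes tested beside *Lyve1*, the receptor *Cd44* was higher (162 and 347 CPM, log2 1.10, 0.98 to 1.21) and *Tmem2*, a hyaluronidase, lower (12.5 and 8.02 CPM, log2 -0.64, -1.30 to -0.02). Of 4 genes tested beside *F13a1*, 3 were higher, among them its substrate *Fn1* (433 and 847 CPM, log2 0.97), and the *F13b* subunit gene was at 0. Beside *Fcna*, the complement gene *C4b* was lower (410 and 228 CPM, log2 -0.85), *C3* was within 1.5-fold, and *Mbl1* and *Mbl2* were at 0. Of 19 selenoprotein genes tested beside *Selenop*, 1 was higher, the selenocysteine synthase gene *Sepsecs* (10.1 and 18.9 CPM), and none lower, and the glutathione peroxidase *Gpx1* was at 1981 and 2159 CPM. Beside *Ednrb*, the ligand genes *Edn2* and *Edn3* were at 0, *Edn1* had 2 and 3 UMIs and the A receptor gene *Ednra* had 1 and 0. None of the 3 endothelin genes tested and none of the 3 relatives of *Rcn3* tested was past 1.5-fold, and *Ninj2* was at 0 in both libraries.

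Genes that overlap the members on the other strand had few UMIs. In kept cells *Ccdc152*, which lies across *Selenop*, had 60 UMIs in CD and 19 in HFD, and *Gm10602*, which lies across *Folr2*, had 37 and 26, against 50279 and 15643 UMIs of *Selenop* and 13980 and 2328 of *Folr2*. The 2 libraries shared 14 barcode sequences, 10 of them kept in each. Without those barcodes, 6 of 9 members were still lower in HFD Lyz1-low cells and 5 of 9 in their Ccr2- cells.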

How the data were processed

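Epididymal ATMs of mice on CD or overnight HFD were measured by droplet scRNA-seq, 1 library of 3 pooled mice per diet. The deposited values are raw counts, the number of UMIs of each gene in each barcode. The authors aligned the reads to mm10 (Ensembl release 93 annotation) with Cell Ranger 3.0.2, and the deposited counts are not scaled. Whether counting used strand is not given in the sources used here. The members and gene lists were chosen with earlier results of these data known.

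Analyses used Python 3.11.15, numpy 2.4.6, scipy 1.17.1 and pandas 2.3.3. UMIs were summed over cells and given as CPM. Intervals are exact and at 95%: Poisson for levels, conditional binomial for ratios and Clopper-Pearson for shares. Only counting error is covered, since cells are not replicates. Genes with at least 50 UMIs over both sets of cells were tested against a fold of 1.5, and pairs expected in at least 5 cells against a ratio of 1.2. Cells were thinned without replacement to 1000 UMIs for shares. Named genes were the 9 members, their relatives by list, the 10 genes most like the members, and the members with the highest and lowest ratio. Positions of overlapping genes came from GENCODE on GRCm38. Calculations were tested on simulated data.

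Alternatives changed the limits on mitochondrial UMIs, genes and *Lyz1*, the source of the *Ccr2* split, depth, weighting, scaling, fold, low counts, other cell types and shared barcodes. Leaving out cells with stromal or cycling markers, or with peritoneal macrophage or platelet markers, and taking cells with at least 5 or 10 UMIs of the other members, were chosen after seeing the data. Barcodes outside the filters and the study's other assays were not used in the comparisons.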

Additional observations from a re-analysis of the deposited data

How the results depend on the processing

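No paired analysis was possible because each diet had 1 library and the labels give no replicate numbers. Of 158 counts of members or pairs under other settings, 146 stayed within 1.5 times the value reported, and of 1024 single ratios, 255 moved beyond their counting interval, 37 lost and 7 gained their call, and 1 turned its sign, that of *Fcna* in HFD over CD Lyz1-low Ccr2- cells, at 0.02 after thinning. At 2-fold, 2 of 9 members were lower in HFD in Lyz1-low Ccr2- cells, 5 in Ccr2+ cells and 5 in Lyz1-high cells, and 1 was higher in Ccr2- than Ccr2+ cells of CD. With a *Lyz1* limit of 2000 CPM in the cell, 5 members were lower in Lyz1-high cells. With cells thinned to 1000 UMIs, 3 members were higher in Ccr2- than Ccr2+ cells of CD. In Lyz1-low cells with at least 10 UMIs of the other members, 3 members were lower in HFD and *Fcna* was at 0.32 (0.16 to 0.48). Of the 36 pairs in CD, 23 reached 1.2 times at a limit of 5% mitochondrial UMIs, 6 after thinning to 2000 UMIs and 4 with no thinning. At a ratio of 1.5, 0 pairs were called in CD and 8 in HFD. Counts under other settings, here and in the results above, are given without the share of all genes or pairs past the same limit. They are read only against the members' main counts. The cause of these changes was not tested, other than that a higher fold or ratio calls fewer by construction. Depth limits *Rcn3* and *Cbr2* most, with 49 and 54 UMIs in HFD Lyz1-high cells, and 1 library per diet limits every comparison between the diets.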

Other observations

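Barcodes over the limit of 10% mitochondrial UMIs, with 200 to 3500 genes, also carried the members. There were 2043 in CD with a median of 896 UMIs and 1120 in HFD with a median of 739. *Cbr2* was at 542 CPM (512 to 573) in CD and 181 CPM (155 to 210.2) in HFD, and *Folr2* at 1100.1 and 395 CPM. *Fcna*, the ficolin, was at 504 CPM (475 to 534) and 472 CPM (429 to 517), with intervals that overlapped, and *Ninj1* at 395 (369 to 421) and 359 CPM (322 to 399). *Ednrb* was at 534 (504 to 565) and 375 CPM (337 to 416), and its CD level was above the 445 CPM (430.1 to 460.4) of kept CD Lyz1-low cells.

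Over the same Lyz1-low cells, the genes most opposed to the members' mean level were *Cd52* (a correlation of -0.54 in CD and -0.40 in HFD), *Fn1* (-0.44 and -0.38), *Il1b* (-0.46 and -0.35) and *Ear2* (-0.42 and -0.33), chosen after their values were seen. *Fn1*, *Il1b* and *Ear2* were on the list of recruited genes, and their log2 ratios of HFD over CD in Lyz1-low cells were 0.97, 0.81 and 1.30. *Cd52*, a glycoprotein of mature immune cells, had a log2 ratio of 0.26.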
